A study of Homo sapiens with 19 samples.

Results

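The comparison set the mRNA levels of G3BP2-depleted SH-SY5Y cells directly against those of G3BP1-depleted cells. SH-SY5Y is a human neuroblastoma line. The cells were transfected with 1 siRNA against G3BP1 (siG3BP1) or 1 siRNA against G3BP2 (siG3BP2), and the control cells with siCtrl. Poly-A RNA-seq gave 1 library of each, and levels are in TPM, transcript levels scaled for length and to a fixed total per library. A gene entered the comparison when it was above 1 TPM in at least 1 of the 2 knockdown libraries, which held for 12179 of the 19942 rows for protein-coding genes (61.1%). Of these, 11552 were above 1 TPM in both libraries, 388 only in siG3BP1 and 239 only in siG3BP2. The control siRNA library is given beside them as a level. So are the lysate (Total) and the stress granule core (SG) of cells treated with sodium arsenite (AS), with 1 library each, and the G3BP1 and G3BP2 eCLIP libraries. The labels of the knockdown libraries name 50 mM AS for 1 h, as do those of all libraries used here, whereas the study's methods describe the knockdown without AS.

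With 1 library per condition, no difference had a replicate check and none was tested. An off-target effect of either siRNA, a difference between cultures or library preparations and an effect of the knockdown cannot be told apart. In these bulk libraries, an altered share of cells and an altered RNA level per cell cannot be told apart either. TPM carries no depth, so the reads behind a value are unknown.

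G3BP1 and G3BP2 are paralogous RNA-binding proteins with an N-terminal NTF2-like domain, through which they dimerize and bind partners such as CAPRIN1 and USP10, and a C-terminal RNA recognition motif. Under stress, when translation initiation stops and polysomes release their mRNAs, they bring mRNAs together into stress granules. Cells that lack both proteins fail to form these granules after arsenite, and either protein can restore them. The comparison therefore sets a pair of closely related proteins against each other.

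The 2 mRNAs can be distinguished by their sequence. In the canonical transcripts of GENCODE, the coding sequences of G3BP1 (1401 bases) and G3BP2 (1449 bases) were identical at 970 of 1350 aligned positions (71.9%). No stretch of 31 bases occurred in both mRNAs. The longest stretch shared by the coding sequences had 17 bases, at coding positions 373 to 389 of both. It is printed in capitals below, with 12 bases on either side, because it is the longest run of bases that the coding sequences have in common. The G3BP1 stretch lies at chr5:151794168-151794208 on the plus strand and the G3BP2 stretch at chr4:75656965-75657005 on the minus strand of GRCh38, each within a coding exon.
G3BP1: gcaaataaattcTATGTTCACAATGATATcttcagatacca
G3BP2: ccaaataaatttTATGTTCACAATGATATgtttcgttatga

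Each target was low in its own library. G3BP1 (ENSG00000145907, chromosome 5, 151771045 to 151812911, plus strand) was at 18.7 TPM in siCtrl, 5.996 TPM in siG3BP1 and 16.5 TPM in siG3BP2. G3BP2 (ENSG00000138757, chromosome 4, 75641849 to 75724589, minus strand) was at 38.1 TPM in siCtrl, 39.4 TPM in siG3BP1 and 11.4 TPM in siG3BP2. Relative to siCtrl, 32.0% of G3BP1 was left in siG3BP1 and 29.9% of G3BP2 in siG3BP2, while the other paralog stood at 103% and 88.3%. The depletions were thus of similar size and each left a part of the mRNA. Between the 2 knockdown libraries, G3BP1 was 2.76-fold higher in siG3BP2 and G3BP2 3.45-fold higher in siG3BP1. Given as log2((siG3BP2 + 1)/(siG3BP1 + 1)), which is the log2 ratio used throughout and which understates differences of low genes, these were 1.33 and -1.70. The SG library held 59.3 TPM of G3BP1 and 143 TPM of G3BP2, the Total library 12.8 and 28.1 TPM.

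The cells carried neuroblastoma transcripts at like levels in both libraries. Of 8 noradrenergic genes, 7 were above 1 TPM, among them HAND2 at 814 and 812 TPM and GATA3 at 356 and 350 TPM in siG3BP1 and siG3BP2, and their summed level was 3510 and 3738 TPM, against 3522 TPM in siCtrl. TH was at 0.0786 and 0.389 TPM. Of 5 mesenchymal-type genes 3 were above 1 TPM, led by VIM, and they summed to 1642 and 1898 TPM. The blood markers PTPRC, CD3E and HBB, the endothelial markers PECAM1 and CDH5 and the liver marker ALB were listed at 0 in all 3 libraries, and 1 of the 4 Schwann cell markers exceeded 1 TPM, with the 4 together at 1.59 and 2.01 TPM.

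The libraries were close for most genes. Spearman's rho between their TPM over the 12179 genes was 0.978, as a description of 2 libraries, and 70.9% of genes differed by no more than 25% of the lower value. The median log2 ratio was -0.040 with quartiles of -0.20 and 0.12. The ratio was above 0 for 42.8% of genes.

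A gene was called higher in G3BP2-depleted cells when siG3BP2 was above 1 TPM and more than 2 times siG3BP1, and lower when siG3BP1 was above 1 TPM and siG3BP2 below 0.5 times it. By this rule 296 genes were higher (2.43% of those compared) and 478 were lower (3.92%). Of the 774 genes, 1 on each side was listed at 0 in the other library. These were H3C14, a histone H3 gene, with 1.05 TPM in siG3BP1, and ENSG00000288712, with 1.38 TPM in siG3BP2, and no ratio is given for them.

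**Figure D1:**
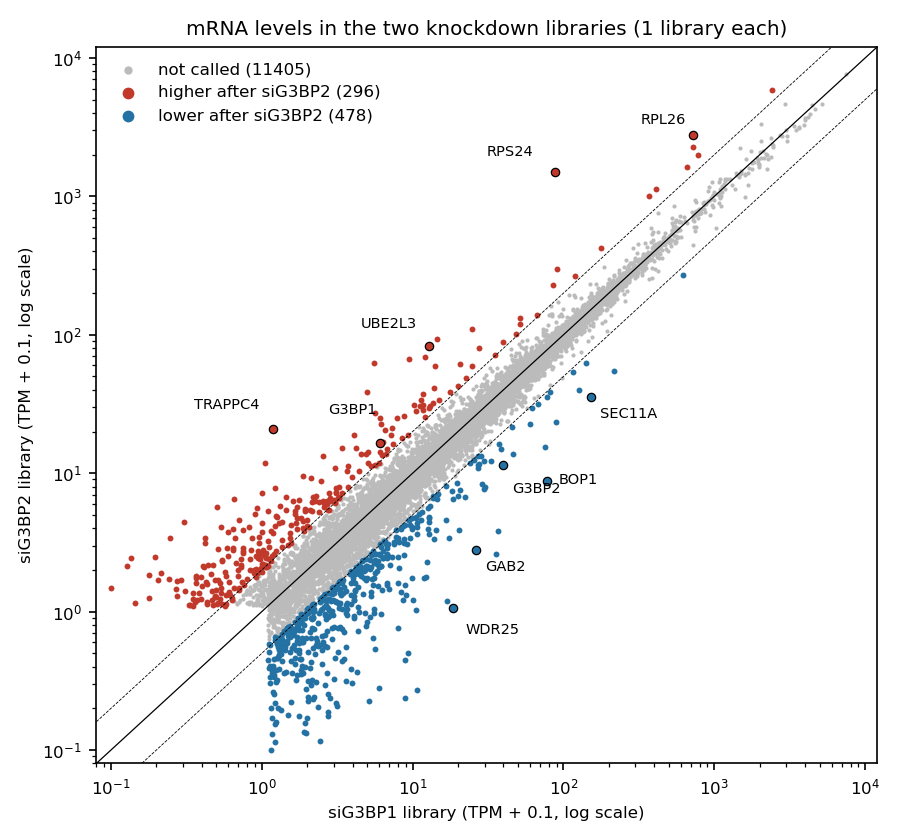
TPM + 0.1 of each gene in the siG3BP1 library (x axis) and the siG3BP2 library (y axis), both on log scales, for the 12179 genes above 1 TPM in either. The solid line marks equal levels and the dashed lines 2-fold differences. Most genes follow the diagonal, and the 296 called higher (red) and 478 called lower (blue) crowd at low TPM, with RPS24, RPL26 and SEC11A standing off the diagonal at high TPM.

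The calls crowded among low mRNAs. In genes whose higher value was between 1 and 2 TPM, 22.5% were called, against 2.01% of the 1147 genes above 100 TPM. The distance between the quartiles of the log2 ratio narrowed from 0.43 to 0.22 over the same range, although the added 1 TPM itself shrinks the ratios of low genes. The excess of lower over higher calls also belonged to low mRNAs. Below 2 TPM 78 genes were higher and 144 lower, and above 100 TPM 17 were higher and 6 lower. Among the 6991 genes above 10 TPM in at least 1 library, 79 were higher (1.13%) and 72 lower (1.03%).

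**Figure D2:**
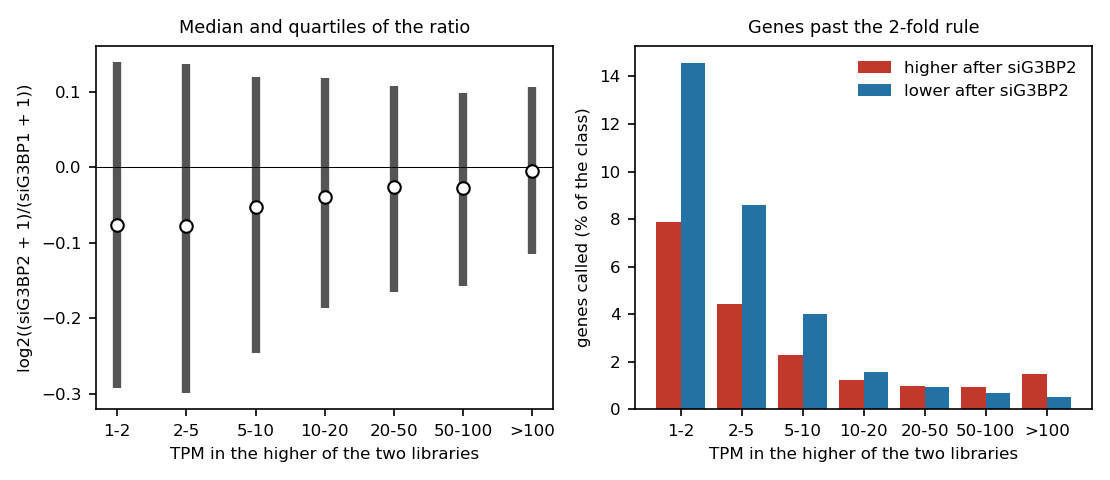
Left, median (circle) and quartiles (bar) of the log2 ratio in 7 classes of TPM in the higher of the 2 libraries. Right, percentage of each class called higher (red) or lower (blue). The quartiles close in from a width of 0.43 at 1 to 2 TPM to 0.22 above 100 TPM, and lower calls exceed higher calls up to 20 TPM.

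At the entry limit itself lay PTK6, with 1.00 TPM in siG3BP1 and 0.348 TPM in siG3BP2, and PDIA2, with 0.249 and 1.00 TPM, both just inside and both past the fold. Just outside were ANK1, with 1.00 and 0.687 TPM, and EIF5A2, with 0.958 and 0.999 TPM.

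Among genes above 10 TPM, the largest log2 ratio was that of RPS24, a protein of the small ribosomal subunit (ENSG00000138326, chromosome 10, 78033760 to 78056813, plus strand). It stood at 88.0 TPM in siG3BP1 and 1495 TPM in siG3BP2, with 1283 TPM in siCtrl and 183 TPM in Total. The ratio of TPM was 17.0 and the log2 ratio 4.07. The low library was thus siG3BP1, and the Total library was low as well.

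Next came genes of vesicle transport, protein folding and mitochondria. TRAPPC4, a subunit of a complex that tethers vesicles (chromosome 11, 119018763 to 119025454, plus strand), was at 1.09 TPM in siG3BP1 and 20.7 TPM in siG3BP2, with 23.7 TPM in siCtrl. PFDN1, a subunit of the chaperone prefoldin, was at 5.42 and 62.4 TPM, with 59.8 TPM in siCtrl. SNAP47, a SNARE protein, was at 4.90 and 38.7 TPM, with 50.9 TPM in siCtrl. In these 3 genes the siCtrl library sided with siG3BP2. So it did in ATP5IF1, the inhibitor of the mitochondrial ATP synthase (9.38 and 66.5 TPM, 57.7 TPM in siCtrl). COPZ1, a subunit of the COPI vesicle coat, was likewise at 14.5 TPM in siG3BP1 against 92.8 TPM in siG3BP2 and 92.4 TPM in siCtrl. POR, which passes electrons to cytochrome P450 enzymes, was at 11.96 and 69.0 TPM, with 84.1 TPM in siCtrl.

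In another set siCtrl sided with siG3BP1. UBE2L3, a ubiquitin-conjugating enzyme (ENSG00000185651, chromosome 22, 21549447 to 21624034, plus strand), was at 12.8 TPM in siG3BP1 and 83.1 TPM in siG3BP2, with 13.3 TPM in siCtrl and 81.2 TPM in Total. COA1, which takes part in the assembly of mitochondrial respiratory complexes, was at 13.9 and 59.7 TPM, with 11.2 TPM in siCtrl and 60.6 TPM in Total. Both genes therefore had 2 distinct levels over the 4 libraries, with the high one in siG3BP2 and Total. RPL26, a protein of the large ribosomal subunit, was at 718 and 2764 TPM, with 666 TPM in siCtrl. RPL26 overlaps another annotated gene on its strand, and the 2 genes summed to 1154 and 3186 TPM.

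The remaining genes with large log2 ratios were 3 regulators of DNA repair, cell shape and chromatin and a gene listed on 2 rows. PRKDC, the catalytic subunit of the DNA-dependent protein kinase, was at 24.7 TPM in siG3BP1 and 110 TPM in siG3BP2, above the 35.5 TPM of siCtrl. SRGAP2, a GTPase-activating protein of neurons with close human paralogs, was at 2.44 and 13.2 TPM, with 14.1 TPM in siCtrl. EHMT1, a histone H3 lysine 9 methyltransferase, was at 3.99 and 18.7 TPM, with 17.7 TPM in siCtrl. PPP2R3B, a regulatory subunit of protein phosphatase 2A, lies in the part shared by the X and Y chromosomes. Its first row was at 0.948 and 11.7 TPM, but its second row was at 17.8 and 13.2 TPM, and their sum of 18.7 and 24.8 TPM was not called.

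Among genes lower in siG3BP2, the smallest log2 ratio came from another gene of that shared region. The first row of CD99, a cell surface glycoprotein, was at 35.6 TPM in siG3BP1 and 2.49 TPM in siG3BP2. The second row was at 65.3 and 84.3 TPM, and the sum of 101 and 86.8 TPM was not called. Of the 11 genes with 2 rows in the comparison, 3 rows were called, the other being a row of DHRSX, with 0.466 and 1.00 TPM.

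WDR25 (chromosome 14, 100376418 to 100530303, plus strand) was at 18.5 TPM in siG3BP1, 0.960 TPM in siG3BP2 and 0.379 TPM in siCtrl, so that siG3BP1 was the high library. IQCJ-SCHIP1, a read-through of 2 neighbouring genes, was at 10.5 TPM in siG3BP1 and 0.173 TPM in siG3BP2. The overlapping SCHIP1 was at 59.4 and 66.4 TPM, and the summed level of the locus was 69.9 and 66.6 TPM, a log2 ratio of -0.069. C19orf81 was at 16.9 and 1.09 TPM, with 19.7 TPM in siCtrl and 0.888 TPM in Total.

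Ribosome biogenesis, signalling and synaptic genes followed. BOP1, a factor of large ribosomal subunit biogenesis (ENSG00000261236, chromosome 8, 144262045 to 144291438, minus strand), was at 77.9 TPM in siG3BP1 and 8.75 TPM in siG3BP2, with 88.1 TPM in siCtrl and 68.2 TPM in Total, so that siG3BP2 was the low library. GAB2, an adaptor of receptor tyrosine kinases, was at 26.3 and 2.70 TPM, with 38.7 TPM in siCtrl. UNC13B, which primes synaptic vesicles, was at 11.7 and 1.64 TPM, with 11.4 TPM in siCtrl. RPTOR, the subunit that defines the kinase complex mTORC1, was at 20.1 TPM in siG3BP1, 3.81 TPM in siG3BP2 and 23.3 TPM in siCtrl. In each of these genes siCtrl was closer to siG3BP1 than to siG3BP2. The same order held for the semaphorin receptor PLXNA4 (17.3 and 3.27 TPM, 22.6 TPM in siCtrl), the focal adhesion protein TNS1 (12.3 and 2.18 TPM, 17.6 TPM in siCtrl) and SEC11A, a catalytic subunit of the signal peptidase (152 and 35.4 TPM, 130 TPM in siCtrl).

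For 4 further genes siCtrl lay between the knockdown libraries. ECH1, an enzyme of fatty acid oxidation, was at 74.96 TPM in siG3BP1 and 15.3 TPM in siG3BP2, with 53.7 TPM in siCtrl, and with the gene that overlaps it the sum was 187 and 125 TPM. CISD3, an iron-sulphur protein of mitochondria, was at 36.4 and 3.73 TPM, with 15.3 TPM in siCtrl. NCOA1, a coactivator of nuclear receptors, was at 10.4 and 0.926 TPM, with 4.299 TPM in siCtrl. BBS4, a subunit of the complex that carries membrane proteins to cilia, was at 12.1 and 1.68 TPM, with 2.23 TPM in siCtrl.

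**Figure D3:**
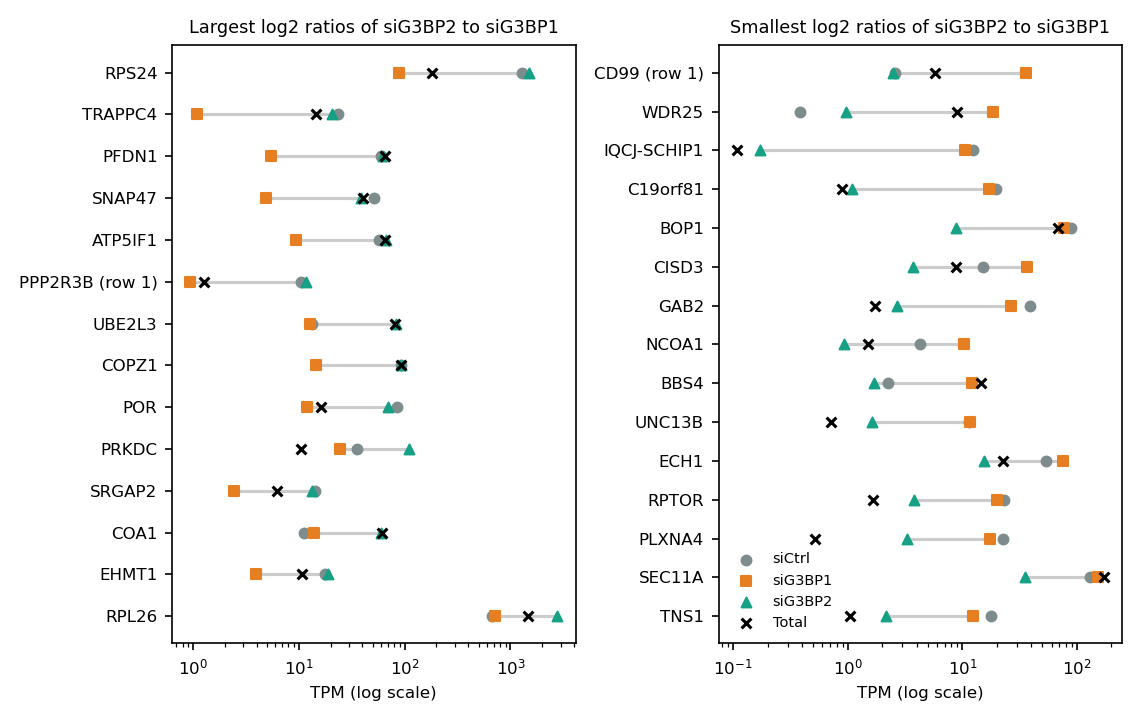
TPM (log scale) of 14 of the 15 genes with the largest (left) and the 15 with the smallest (right) log2 ratio of siG3BP2 to siG3BP1 among genes above 10 TPM in either, in the siCtrl (circle), siG3BP1 (square), siG3BP2 (triangle) and Total (cross) libraries, with a grey bar between the knockdown libraries. On the left siCtrl lies within 25% of siG3BP2 in 9 genes and of siG3BP1 in 3, and on the right within 25% of siG3BP2 in 1 gene and of siG3BP1 in 6.

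The siCtrl level shows on which side of the comparison a called gene departed from the control library. Of the 79 genes above 10 TPM called higher in siG3BP2, siCtrl was within 25% of siG3BP2 in 34 and within 25% of siG3BP1 in 17. It lay between the 2 libraries in 40, above both in 24 and below both in 15. Of the 72 called lower, siCtrl was within 25% of siG3BP1 in 32 and within 25% of siG3BP2 in 9, and it lay between the libraries in 40, above both in 27 and below both in 5. On both sides, siCtrl was thus more often matched by the library with the higher level. The 10 TPM limit was met through that library, so the selection can favour such a match. Without that limit, siCtrl was within 25% of siG3BP2 in 98 and of siG3BP1 in 67 of the 296 genes called higher. Of the 478 called lower, siCtrl was within 25% of siG3BP1 in 164 and of siG3BP2 in 71. The position of siCtrl was not tested.

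Cytosolic ribosomal protein mRNAs split into a large group with small differences and a few with large ones. Of 86 genes of the list 82 entered the comparison, with a median log2 ratio of -0.057 (quartiles -0.17 and 0.066), against -0.040 over all genes. Yet 8 of the 82 were called higher and 1 lower, beside 2.43% and 3.92% of all genes. In 5 of the 8, siG3BP1 and siCtrl were at a like low level. They included RPL26, RPS14 (331 TPM in siCtrl, 370 in siG3BP1 and 1003 in siG3BP2) and RPS19 (322, 410 and 1121 TPM). In the other 3, siG3BP1 alone was low. RPS24 is given above, RPSA was at 2233 TPM in siCtrl, 782 TPM in siG3BP1 and 1983 TPM in siG3BP2, and RPS10 was at 2276, 724 and 2278 TPM. The gene called lower was RPL22, at 240 TPM in siCtrl, 620 TPM in siG3BP1 and 269 TPM in siG3BP2. The next lowest ratio was that of RPL32 (1606 TPM in siG3BP1 and 989 TPM in siG3BP2), which was not called. Ribosomal protein genes have many near-identical pseudogene copies with which reads can be exchanged, so these values are uncertain.

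Among translation initiation factors, 38 of 39 were compared, with a median log2 ratio of 0.039 and 25 above 0. Of the 38, 0 were called higher and 1 lower, beside 2.43% and 3.92% of all genes. The lower call was EIF4G3, a scaffold of the cap-binding complex, at 11.3 TPM in siG3BP1 and 4.46 TPM in siG3BP2, with 5.64 TPM in siCtrl. Its cap-binding partner EIF4E stood at 7.31 and 4.19 TPM. EIF3K, a subunit of initiation factor 3, was at 83.2 and 162 TPM, just under the fold, and the helicase EIF4A1 at 537 and 852 TPM.

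Of 50 genes for G3BP partners and stress granule proteins 46 were compared, with a median log2 ratio of 0.025. Of the 46, 3 were called higher and 0 lower, beside 2.43% and 3.92% of all genes. CAPRIN1, which binds both G3BP proteins and promotes granules, was at 95.2 TPM in siG3BP1 and 97.48 TPM in siG3BP2. USP10, which binds them and inhibits granules, was at 47.6 and 38.4 TPM, and UBAP2L at 115 and 102 TPM. The mRNAs of these 3 partners thus differed by less than 25%. PRRC2A, which associates with stress granules and initiating ribosomes, was at 29.0 TPM in siCtrl, 20.6 TPM in siG3BP1 and 61.0 TPM in siG3BP2. CELF1, a regulator of splicing and mRNA decay, was at 25.7, 4.78 and 13.7 TPM, so that both knockdown libraries were below siCtrl. TAF15, an RNA-binding protein, was at 6.68, 1.02 and 2.84 TPM. At the other end were PUM2, a repressor that binds 3′UTRs (18.1 and 10.5 TPM), and the helicase DDX6 (13.7 and 9.48 TPM), neither of which was called. CAPRIN1, USP10, UBAP2L and TAF15 were named after their values were seen.

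Of 46 mRNA decay factors 45 were compared, with a median log2 ratio of 0.026. Of the 45, 2 were called higher and 1 lower, beside 2.43% and 3.92% of all genes. CNOT2, a subunit of the CCR4-NOT deadenylase, was at 22.9 TPM in siCtrl, 5.96 TPM in siG3BP1 and 24.8 TPM in siG3BP2. PAN3, of the other cytoplasmic deadenylase, was at 0.826 TPM in siG3BP1 and 1.87 TPM in siG3BP2. The helicase SKIC2, which assists the cytoplasmic exosome, was at 8.06 and 1.98 TPM, and its partner SKIC3 at 8.03 and 4.42 TPM without a call. EDC3, an activator of decapping, was at 18.5 and 32.4 TPM, below the fold.

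The small RNA silencing genes had the lowest median of all lists. Of 13 genes 12 were compared, with a median of -0.31 and 10 below 0. Of the 12, 0 were called higher and 1 lower, beside 2.43% and 3.92% of all genes. DICER1, which cuts precursors to miRNAs, was at 6.24 TPM in siG3BP1 and 2.35 TPM in siG3BP2, with 2.75 TPM in siCtrl. DROSHA, which cuts primary transcripts in the nucleus, was at 24.5 and 12.8 TPM, with 15.6 TPM in siCtrl. For both nucleases siCtrl was thus near siG3BP2. The Argonaute genes AGO1 (5.70 and 2.94 TPM, 7.396 TPM in siCtrl) and AGO2 (6.30 and 3.65 TPM, 6.41 TPM in siCtrl), chosen after their values were seen, had siCtrl near or above siG3BP1 instead. XPO5, the export receptor of miRNA precursors, was at 40.8 and 40.2 TPM, and PRKRA, a partner of Dicer, at 36.6 and 43.9 TPM. These mRNAs are long, with a median transcript of 7882 nt.

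Proteasome genes had the highest median. Of 39 genes 35 were compared, 31 of them with a ratio above 0, and the median log2 ratio was 0.15 (quartiles 0.046 and 0.22). The shift was small in most genes. Of the 35, 1 was called higher and 1 lower, beside 2.43% and 3.92% of all genes. PSMD4, a ubiquitin receptor of the regulatory particle, was at 301 TPM in siCtrl, 90.8 TPM in siG3BP1 and 297 TPM in siG3BP2. PSMB3, of the catalytic core, was at 119 TPM in siCtrl, 126 TPM in siG3BP1 and 40.1 TPM in siG3BP2. The next in rank were PSMD6 (52.4 and 65.1 TPM) above and PSMD8 (353 and 301 TPM) below.

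Genes of energy metabolism lay on the same side. The median of 18 of 19 glycolytic genes was 0.11, with 16 above 0 and 0 called in either direction. PKM, the last enzyme of glycolysis, was at 749 TPM in siG3BP1 and 940 TPM in siG3BP2, and PFKM, a phosphofructokinase, at 35.4 and 50.2 TPM. The other phosphofructokinases PFKL (61.8 and 58.5 TPM) and PFKP (71.1 and 68.1 TPM) were at the low end. For all 78 nuclear-encoded respiratory chain subunits the median was 0.054, with 54 above 0 and 0 called. They ranged from UQCRB of complex III (146 and 90.1 TPM) and NDUFA5 of complex I (14.1 and 10.7 TPM) to NDUFB3 of complex I (56.1 and 74.9 TPM) and the ATP synthase subunit ATP5MC2 (381 and 591 TPM). All 78 mitochondrial ribosomal protein genes were compared, with a median of 0.051. Of these 78, 1 was called higher and 1 lower, beside 2.43% and 3.92% of all genes. MRPL22 was at 29.4 and 7.52 TPM, with 7.99 TPM in siCtrl, and MRPS18B at 0.646 and 2.57 TPM. MRPL27 (57.0 and 92.3 TPM) and MRPL19 (4.26 and 6.68 TPM) were higher without a call, and MRPL21 (93.9 and 70.4 TPM) was lower. No row of the table matched an mRNA of mitochondrial DNA.

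Chromatin regulators with long mRNAs were on the other side. Of 38 genes 36 were compared, 29 of them with a ratio below 0, and the median log2 ratio was -0.18. None was called higher and 5 were called lower, beside 3.92% lower calls over all genes and 7.38% among those of transcripts above 8000 nt, and the list has a median of 9326 nt. EP300 and CREBBP, the paired histone acetyltransferases and coactivators, were at 12.7 and 14.3 TPM in siG3BP1 and at 4.33 and 6.41 TPM in siG3BP2, with 14.8 and 14.9 TPM in siCtrl. KAT6A, another acetyltransferase, was at 5.75 and 1.42 TPM, with 7.93 TPM in siCtrl. CHD8, a remodeller, was at 24.1 and 11.7 TPM, with 24.4 TPM in siCtrl. NSD1, a histone H3 lysine 36 methyltransferase, was at 6.77 and 2.96 TPM, with 6.20 TPM in siCtrl. In all 5, siG3BP2 was the low library and siCtrl lay within 1.5-fold of siG3BP1. Against them stood ANKRD11 (27.4 and 39.4 TPM) and KMT2D (7.64 and 9.91 TPM), at the high end of the list.

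The clustered protocadherins, adhesion receptors that give neurons an identity, were uniformly a little lower. All 46 of the 53 genes that entered the comparison had a log2 ratio below 0, between -0.48 and -0.027 with a median of -0.18, and 0 were called (45 of the 46 were below 0 with the median ratio of all genes set to 1). The extremes were PCDHAC2 (11.1 and 7.70 TPM), PCDHA11 (8.10 and 5.81 TPM), PCDHB6 (10.7 and 9.77 TPM) and PCDHB4 (5.06 and 4.95 TPM). Isoforms of the alpha and gamma clusters share their last exons, so these are not 46 independent values. Of 508 numbered zinc finger genes 420 were compared, with a median of -0.068. Of the 420, 13 were called higher and 28 lower, beside 2.43% and 3.92% of all genes. ZNF521 was at 5.01 and 0.125 TPM, ZNF207, which acts at the mitotic spindle, at 88.5 and 23.2 TPM, ZNF444 at 11.0004 and 30.6 TPM and ZNF248 at 2.78 and 6.14 TPM.

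Cell cycle genes stayed close between the libraries. All 42 DNA replication genes were compared, with a median of 0.055 and 0 called, between POLD3 (11.2 and 8.74 TPM) and MCM4 (73.3 and 66.0 TPM) at the low end and POLD1 (45.3 and 57.5 TPM) and the DNA ligase LIG1 (36.2 and 51.6 TPM) at the high end. All 31 mitosis genes were compared, with a median of -0.020 and 0 called. The proliferation marker MKI67 was at 27.5 and 21.1 TPM, the centromeric histone CENPA at 46.6 and 36.5 TPM, CCNB1 at 82.8 and 94.5 TPM and the kinase TTK at 4.56 and 8.99 TPM. The sign of the mitosis median changed when siG3BP2 was rescaled to a median ratio of 1, as did that of the histone, immediate-early, noradrenergic, neuronal and mesenchymal-type medians. Of 67 replication-dependent histone genes, whose mRNAs mostly lack poly-A tails, 28 were compared, with a median of -0.015. Of the 28, 3 were called higher and 2 lower, beside 2.43% and 3.92% of all genes. Besides H3C14 the calls were H2AC8, H3C6 (0.903 and 2.58 TPM), H2BC4 (0.466 and 1.83 TPM) and H3C3 (2.001 and 0.611 TPM). The list included H2AC8 (1.62 and 5.56 TPM) and H1-2 (17.5 and 25.8 TPM) at the high end and H4C11 (6.85 and 4.09 TPM) and H2AC6 (9.00 and 7.72 TPM) at the low end of those above 5 TPM.

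Calls among stress and sterol genes are to be read beside 2.43% higher and 3.92% lower calls over all genes. Among all genes above 10 TPM these shares were 1.13% and 1.03%. Of 26 genes of the integrated stress and unfolded protein responses 25 were compared, with a median of -0.038 and 0 called, from SLC7A5 (53.02 and 35.9 TPM) and ATF5 (14.0 and 11.4 TPM) to PSAT1 (39.8 and 48.1 TPM) and DDIT4 (55.4 and 67.3 TPM). All 18 heat shock chaperones were compared, with a median of 0.042 and 1 called. The constitutive chaperone HSPA8 was at 1025 TPM in siCtrl, 1021 TPM in siG3BP1 and 591 TPM in siG3BP2, below siG3BP1 without passing the fold, and HSPA4L, at 1.28 and 0.488 TPM, did pass it. CHORDC1 was at 5.89 and 5.17 TPM, STIP1 at 206 and 242 TPM and HSP90AA1 at 235 and 291 TPM. All 23 cholesterol synthesis genes were compared, with a median of 0.086 and 0 called, from the regulator SREBF2 (39.0 and 34.0 TPM) to HSD17B7 (8.56 and 11.2 TPM) and MVD (21.7 and 28.3 TPM).

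Of 29 interferon-stimulated and RNA-sensing genes 11 were compared, with a median of -0.21. Of the 11, 1 was called higher and 2 lower, beside 2.43% and 3.92% of all genes. OAS3, which makes 2′-5′ oligoadenylate when it senses double-stranded RNA, was at 9.66 TPM in siCtrl, 8.51 TPM in siG3BP1 and 4.02 TPM in siG3BP2. BST2 was at 1.32 and 0.459 TPM. IRF7, a transcription factor of the interferon response, was at 6.21 TPM in siCtrl, 5.89 TPM in siG3BP1 and 11.8 TPM in siG3BP2. OAS1 (8.68 and 6.16 TPM) and ISG15 (4.60 and 5.62 TPM) were not called. Of 21 p53 targets 20 were compared, with a median of -0.12, 15 below 0 and 0 called. TP53I3 was at 76.0 and 108 TPM, GADD45A at 38.6 and 42.4 TPM, ZMAT3 at 5.56 and 3.46 TPM and AEN at 40.1 and 28.2 TPM. Of 31 immediate-early genes 23 were compared, with a median of -0.021. Of the 23, 0 were called higher and 1 lower, NR4A3 (1.79 and 0.695 TPM), beside 2.43% and 3.92% of all genes. The immediate-early genes above 5 TPM lay between NR4A1 (8.05 and 6.60 TPM) and DUSP2 (13.8 and 12.1 TPM) on one side and IER5 (14.7 and 17.1 TPM) and DUSP1 (14.3 and 17.0 TPM) on the other.

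The neuronal and neuroblastoma lists were centred near the median of all genes. Of 24 noradrenergic genes 21 were compared, with a median of -0.024 and 0 called. The receptor tyrosine kinase RET was at 55.7 and 79.2 TPM, the granule protein CHGA at 309 and 387 TPM, and the transcription factor HAND1 at 228 and 180 TPM. All 24 genes of the neuronal cytoskeleton and synapse were compared, with a median of -0.023. Of the 24, 0 were called higher and 1 lower, beside 2.43% and 3.92% of all genes. NCAM1, an adhesion molecule, was at 5.68 and 10.9 TPM, the SNARE protein SNAP25 at 34.6 and 45.1 TPM, the calcium sensor SYT1 at 12.01 and 7.08 TPM and CPLX2 at 33.1 and 22.9 TPM. Of 21 mesenchymal-type genes 16 were compared, with a median of -0.022. Beside 3.92% lower calls over all genes, 2 of the 16 were called lower. These were the adhesion receptor CD44 (3.18 and 1.56 TPM) and the Hippo pathway coactivator WWTR1 (1.51 and 0.581 TPM). COL3A1 (8.03 and 4.77 TPM), CCN1 (5.01 and 3.82 TPM), COL1A1 (14.9 and 17.9 TPM) and ANXA2 (42.1 and 57.2 TPM) were not called. Of 12 Schwann cell, blood and endothelial markers, ALB included, 1 entered the comparison.

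**Figure D4:**
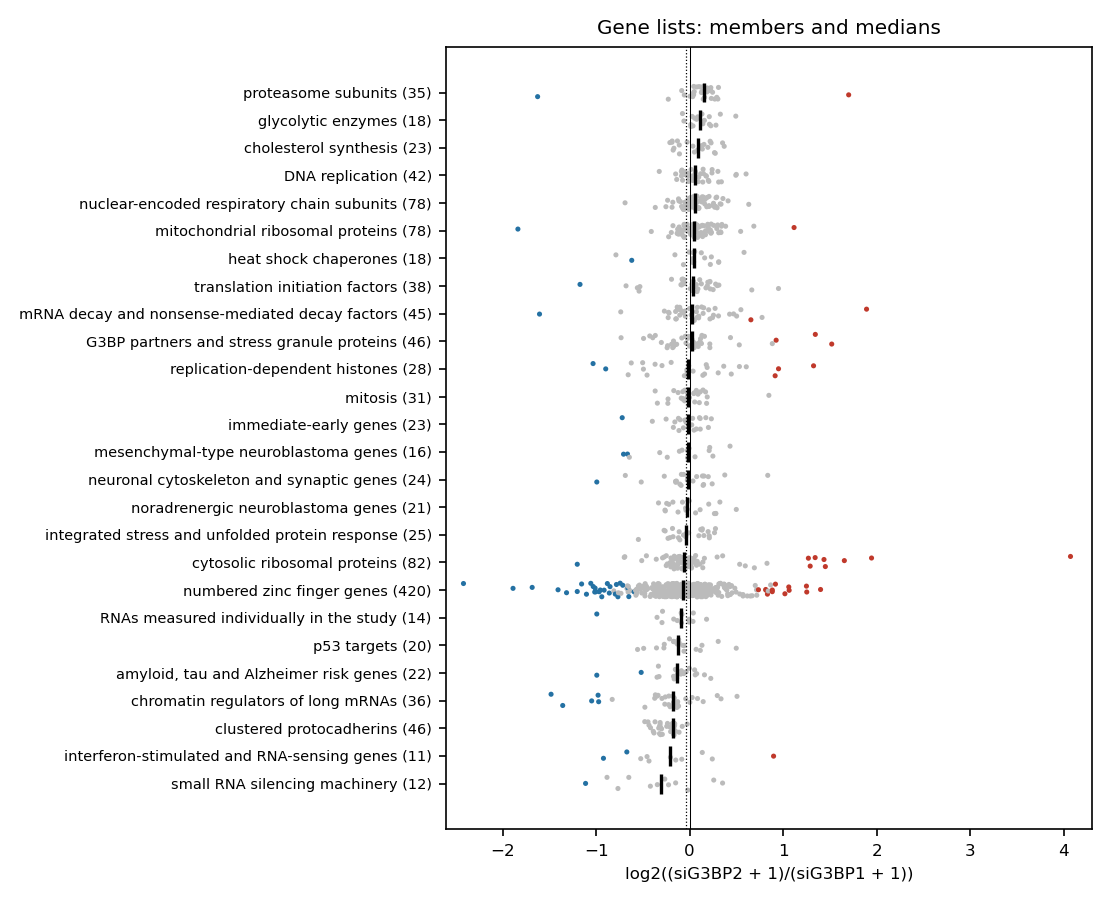
Log2 ratio of each gene (points, red called higher, blue called lower, grey not called) and median (black bar) in 26 gene lists, with the number compared in brackets. The solid vertical line marks 0 and the dotted line the median of all 12179 genes. Proteasome genes have the highest median (0.15) and small RNA silencing genes the lowest (-0.31), and single genes such as RPS24 lie far from the bulk of their list.

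For the gene whose product forms tangles in Alzheimer's disease, MAPT, the libraries stood in a descending order, at 13.6 TPM in siCtrl, 4.68 TPM in siG3BP1 and 1.86 TPM in siG3BP2. The ratio of 0.396 was a call, on low levels. The SG library held 56.8 TPM of MAPT and the Total library 0.656 TPM. APP, the precursor of amyloid beta, was at 262 TPM in siCtrl, 262 TPM in siG3BP1 and 206 TPM in siG3BP2, without a call. The alpha-secretase ADAM10 was at 4.52 and 4.03 TPM. Of the 26 amyloid, tau and Alzheimer risk genes 22 were compared, with a median of -0.14 and 17 below 0. Of the 22, 0 were called higher and 2 lower, beside 2.43% and 3.92% of all genes. The second lower call was the sorting receptor SORL1 (1.22 and 0.548 TPM). CLU was at 44.6 and 35.1 TPM, PICALM at 19.1 and 20.1 TPM and CDK5 at 62.9 and 73.7 TPM.

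Several RNAs that the study measured one by one were at one level in both knockdown libraries and at another in siCtrl. NGDN was at 46.8 TPM in siG3BP1 and 46.7 TPM in siG3BP2, with 10.6 TPM in siCtrl. HMOX2, the constitutive heme oxygenase, was at 0.754 and 0.844 TPM, under the entry limit, with 16.2 TPM in siCtrl. HTT, the huntingtin gene, was at 4.98 and 3.89 TPM, with 17.0 TPM in siCtrl. A direct comparison of the knockdown libraries therefore does not show these genes, because siCtrl is the library that differs. Of the RNAs tested by RNA immunoprecipitation, SPTBN1 was at 60.2 and 56.8 TPM, PRKCA at 44.2 and 35.8 TPM, TCF4 at 17.8 and 20.3 TPM and MIF at 1095 and 972 TPM. EBPL (92.2 and 86.6 TPM), TPT1 (574 and 572 TPM) and GAPDH (7466 and 7653 TPM) were close too. Of all 15 such RNAs 14 were compared, with a median of -0.089. MAPT was the single call, a lower one, beside 3.92% lower calls over all genes.

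The same rule was also applied to each knockdown against siCtrl. Here 311 of 12280 genes were higher (2.53%) and 453 lower (3.69%) in siG3BP1, and 297 of 12229 were higher (2.43%) and 687 lower (5.62%) in siG3BP2. These comparisons share the siCtrl library, and siG3BP1 and siG3BP2 each also enter the direct comparison, so the 3 sets of calls are not independent. The direct comparison between the knockdown libraries thus held 774 calls, against 764 and 984 calls of the knockdowns against siCtrl.

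The ratio tended to be lower in longer mRNAs. The median log2 ratio was 0.019 in transcripts up to 1000 nt, 0.035 from there to 1500 nt and 0.010 to 2000 nt, and it was below 0 in every longer class, down to -0.10 above 8000 nt. The ratio was above 0 for 52.9% of genes in the shortest and 33.0% in the longest class. Spearman's rho with length was -0.153 over 12168 genes and -0.195 over the 6986 above 10 TPM. These are correlations across genes of 2 libraries, in which all genes share the library and its preparation, so no p-value is given. Lower calls took 2.54% of the genes in the shortest and 7.38% in the longest class. Higher calls had no such order, with 3.31% in the shortest class, a minimum of 1.86% between 2000 and 3000 nt and 2.71% in the longest. Above 10 TPM they were 1.84% of the shortest and 2.69% of the longest class.

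**Figure D5:**
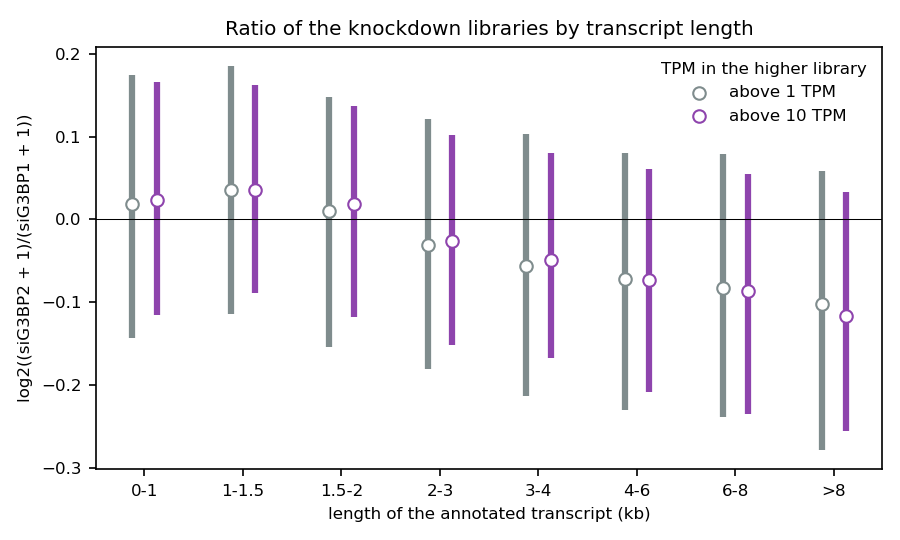
Median (circle) and quartiles (bar) of the log2 ratio in 8 classes of annotated transcript length, for all genes compared (grey) and for those above 10 TPM in either library (purple). The medians go from 0.019 and 0.024 in the shortest to -0.10 and -0.12 in the longest class, while the quartiles of neighbouring classes overlap.

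Within the mRNA, rho was -0.178 for the coding sequence, -0.108 for the 5′UTR and -0.079 for the 3′UTR. GC content gave -0.116, and -0.186 above 10 TPM. The median ratio in genes above 10 TPM went from 0.055 in transcripts of up to 40% GC to -0.069 above 60% GC. After the median of genes of like length had been subtracted from each log2 ratio, rho with GC was -0.162. The step removes the relation to length by design, and rho with length was then -0.0079. Called-lower genes had a median transcript of 4004.5 nt with 11 exons and a genomic span of 80752.5 bases. For called-higher genes these were 3184 nt, 9 exons and 56930.5 bases, and for the others 3182 nt, 9 exons and 30925 bases. Another gene overlapped on the same strand in 14.2% of called-higher, 10.5% of called-lower and 15.8% of other genes. Called genes were also at lower levels, with a median higher value of 3.94 and 3.09 TPM against 14.5 TPM, so level enters these comparisons. Above 10 TPM, the median transcript was 2158 nt in called-higher, 3338 nt in called-lower and 2623 nt in other genes. In the same order, the span was 29280, 53279 and 24087 bases, and overlap was 6.33%, 8.33% and 15.99%.

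This adjustment for length also takes out the shift of all genes. List medians after it are therefore set beside those with the median ratio of all genes set to 1. From that base, the median of the chromatin regulators went from -0.14 to -0.086. That of the clustered protocadherins went from -0.14 to -0.092. The median of the small RNA silencing genes went from -0.27 to -0.26 and that of the proteasome genes from 0.19 to 0.15. All 4 medians thus moved toward 0 and kept their sign beside genes of like length.

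The SG readout, which the ratio does not use, ran in the same direction as length. SG-enriched mRNAs, with SG + 1 above 2 times Total + 1 and SG above 1 TPM, numbered 7282 here and had a median log2 ratio of -0.073. SG-depleted mRNAs numbered 1277 and had 0.028, and the 3535 in neither class had -0.0030. Of SG-enriched mRNAs 2.62% were called higher and 4.75% lower, and of SG-depleted mRNAs 2.35% and 1.33%. SG-enriched mRNAs were also longer, with a median of 4366.5 nt against 1124 nt in SG-depleted ones. After the adjustment for length the medians were -0.010 for SG-enriched, 0.015 for SG-depleted and 0.015 for neither, so that most of the difference between the classes went with length. Spearman's rho between the knockdown ratio and the log2 SG to Total ratio was -0.172, and -0.062 after the adjustment. Among the genes above 10 TPM, the median log2 SG to Total ratio was 0.063 in those called higher, 1.95 in those called lower and 0.80 in the others. The lower calls at these levels were thus mostly of SG-enriched mRNAs, and their median transcript was 3338 nt against 2158 nt for the higher calls.

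The ratio of the Total to the siCtrl library, 2 libraries outside the comparison, was also related to it, weakly. Spearman's rho was 0.204 over all genes and 0.277 above 10 TPM, and 0.146 and 0.195 after the adjustment for length. Genes higher in siG3BP2 than in siG3BP1 thus tended to be those higher in Total than in siCtrl. What the libraries share in this respect was not tested.

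The eCLIP libraries, in which RNA crosslinked to G3BP1 or G3BP2 is immunoprecipitated and sequenced, gave like values for both proteins in each class of genes. In the libraries titled Ctrl, which the study describes as untreated although their labels too name AS, the median log10 value, as a mean of 2 libraries, was 2.60 for G3BP1 and 2.72 for G3BP2 in called-higher genes. It was 2.77 and 2.88 in called-lower genes and 2.28 and 2.38 in the others. Above 10 TPM the called-lower genes kept the larger values (2.77 and 2.81), and the called-higher genes (2.17 and 2.20) were at or below the others (2.18 and 2.29). Over all genes compared, the eCLIP value went with gene size, with a rho between it and the genomic span of 0.824 for G3BP1 and 0.827 for G3BP2. The difference of the G3BP2 and G3BP1 values had a median of 0.12 in called-higher, 0.11 in called-lower and 0.11 in other genes, and its rho with the knockdown ratio was -0.042. A larger value of one protein over the other was therefore hardly related to the library in which an mRNA was higher. In the libraries titled AS the medians for G3BP1 and G3BP2 were 2.47 and 2.66 in called-higher, 2.65 and 2.80 in called-lower and 2.16 and 2.31 in other genes.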

How the data were processed

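Poly-A RNA-seq of SH-SY5Y cells was analysed as deposited. According to the study's methods, the reads were cleaned by the sequencing provider and aligned to GRCh38.p13 with HISAT2 (version 2.1.0 in the submitters' processing notes), and TPM were estimated with StringTie on GENCODE. The authors deposited the TPM of protein-coding genes, which sum to 628101 in siG3BP1 and 631330 in siG3BP2. The eCLIP values were deposited on a log10 scale, and the mean of the 2 libraries of a group was used. StringTie divides reads among overlapping transcripts, and the strand setting is not given in the sources used here, so overlapping genes and paralogs can exchange reads. The rRNA-depleted libraries were not used here.

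The siG3BP2 to siG3BP1 ratio was taken on TPM, with a fold of 2 and a minimum of 1 TPM for a call, and log2 ratios on TPM + 1. With 1 library per side there was no test. Transcript length, GC and coordinates were those of the canonical transcript in GENCODE release 44, matched by Ensembl ID for 19910 of 19942 rows, and the study used release 41. Ratios adjusted for length are relative to the median of the gene's bin, of 20 bins of transcript length with equal gene numbers. The scripts that apply the rule were checked on simulated data without noise, which does not show how the rule behaves on measured libraries. Python 3.11.15, numpy 2.4.6, pandas 2.3.3 and matplotlib 3.10.9 were used.

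The genes named are the 2 targets and the RNAs measured one by one in the study. Added to them are the 15 largest and 15 smallest log2 ratios above 10 TPM, in each gene list the 2 largest and 2 smallest above 5 TPM, the genes at the 1 TPM limit and those listed at 0 in 1 library. Called genes of the lists were also named where there were 5 or fewer and for ribosomal proteins, after their values were seen. Some genes that these rules select are not reported here. The members and lists were chosen with earlier results of these data known.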

Additional observations from a re-analysis of the deposited data

How the results depend on the processing

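The counts of called genes depended on the rule. In place of 296 higher and 478 lower, the fold of TPM + 1 gave 170 and 236, a fold of 1.5 gave 652 and 1007, and a fold of 4 gave 89 and 151. With a minimum of 5 TPM the counts were 128 and 159, with 10 TPM 79 and 72, and with no minimum 1157 and 1682. The share of higher calls was 38.2%, and 52.3% with a minimum of 10 TPM. Setting the median ratio to 1 (312 and 451), equal TPM sums (292 and 488), leaving out overlapping genes (254 and 428) and summing rows that share an ID (294 and 477), which was chosen after seeing the data, left both counts within 1.5 times. The median log2 ratio was between -0.046 and -0.031 under its alternatives. Of 27 list medians, 6 changed sign when the median ratio was set to 1 (histones, mitosis, immediate-early, noradrenergic, neuronal and mesenchymal genes), a shift of 0.039 for all genes. On the adjustment for length, which was also chosen after seeing the data, 3 of these 6 changed sign (mitosis, immediate-early and noradrenergic genes). That adjustment takes out the shift of all genes too, so the 3 changes are not separate from it. With a pseudocount of 10, 18 of the called genes that are named went from a log2 ratio of over 1 in size to one under 1. No paired analysis was possible because each knockdown had 1 library, and for the same reason no replicate could be left out.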
